A study of Homo sapiens with 10 samples.

Results

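Mutant METTL3 knock-in cells were compared with wild type METTL3 knock-in cells across all genes. The comparison used 4 of the 10 RNA-seq libraries of the series, chosen by their labels alone: 2 mutant knock-in samples and 2 wild type knock-in samples. All 4 came from IMR90 cells, human fetal lung fibroblasts, that had received a retrovirus expressing RAS to bring on senescence, an siRNA against METTL3 (the titles call this a knockout) and a lentivirus carrying METTL3, wild type or mutant. The 3 other groups, also of 2 samples each, were a control, a senescent control with a control siRNA, and senescent METTL3 knockout cells without a knock-in. The column names of the knockout samples say vec, so these cells may have received a vector without METTL3. The siRNA was given on day 4 after the retrovirus, again together with the lentivirus on the next day, and RNA was taken 48 hours later. The protocol text names METTL14 and its R298P mutant, whereas the titles and the column names say METTL3, so neither the change in the METTL3 mutant nor the promoter of the lentivirus is known from the sources used here. Whether the 2 samples of a group were separate cultures is not stated, and the p-values then reflect no more than how far samples of a group scatter. That scatter was estimated over all 10 samples, the 3 other groups included. Of 57736 genes in the deposited table, 16915 passed the filter on low counts and were tested.

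METTL3 is the catalytic subunit of the nuclear complex that methylates adenosines in RNA to m6A, and METTL14 is its RNA-binding partner. Interferon-stimulated genes are the antiviral genes switched on when a cell senses foreign or misplaced nucleic acid or receives interferon from a neighbour. Factors such as STAT2 and IRF9 act on the promoters of these genes, and HSF1 acts on those of heat shock genes. Senescent fibroblasts secrete cytokines, proteases and growth factors, the senescence-associated secretory phenotype (SASP), much of it under NF-kB.

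METTL3 counts checked only which samples had a knock-in. Counts per gene carry no sequence, so which of the 2 knock-in groups held the mutant rests on the labels. METTL3 took 5.87% and 5.86% of all counts in the libraries of the wild type group and 11.3% and 14.2% in those of the mutant group. Wilson 95% intervals, which cover counting error only, were within 0.02 percentage points of each value. The knock-in groups did not overlap, and both lay far above the 6 other samples, where METTL3 was at 24.5 to 83.2 CPM (counts scaled to the library's total, per 1000000). On totals without METTL3, its level was 60274 ± 645 CPM (SD, n = 2) in the wild type and 137644 ± 24930 CPM (SD, n = 2) in the mutant group, 2.28 times as high. Mutant and wild type therefore differed in the amount of METTL3 RNA and, per the labels, in its sequence, and these cannot be told apart. The METTL3 row was left out of all totals and tests.

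Without METTL3 the 4 libraries held 14068381 to 20033788 counts. The mutant samples had 25265 and 25582 genes with a count, the wild type samples 24270 and 24501, and the 6 others 21764 to 22844. Of 11 fibroblast markers, all were tested and 3 were lower in the mutant samples (COL1A2, COL3A1 and VIM). That is 27.3% lower, against 5.97% over all genes tested. Changes were negative in 9 of the markers and positive in 2. Their summed level was 8295 and 8951 CPM in wild type and 6382 and 5665 CPM in mutant samples. Leukocyte markers were low: only PTPRC and LYZ of 11 passed the filter, their list summed to 6.31 and 3.95 CPM in wild type and 7.84 and 10.9 CPM in mutant samples, and CD3E was at 0 counts in every sample. Epithelial and endothelial markers had 4 tested genes each and none called, SFTPC, NKX2-1, KRT5 and CLDN5 were at 0 counts in every sample, and TEK was at 21.5 and 22.2 CPM in wild type and 23.7 and 23.7 CPM in mutant samples. The median log2 change of the 4 endothelial genes was 0.95, with all 4 positive and 3 not overlapping. Of all genes tested, 62.5% did not overlap, in either direction. KDR, the highest of these after TEK, was at 1.13 and 1.71 CPM against 2.70 and 3.33 CPM (1.06 ± 0.32, edgeR adjusted p = 0.051), and 5 of 14 alternatives called it, with p down to 0.016. The part of such cells in the results was not tested.

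In the mutant samples 943 genes were higher and 1010 lower than in the wild type samples (edgeR quasi-likelihood test, Benjamini-Hochberg adjusted p under 0.05, called below), which is 11.5% of the genes tested, 5.57% higher and 5.97% lower. The shares of 5.57% and 5.97% are the background for each list count below. In all 1953 called genes the 2 groups did not overlap in CPM, so lack of overlap adds nothing to a call. The rises were larger than the falls: 304 genes rose by at least 1 on the log2 scale and 20 fell by that much, while the median over all genes was 0.02. The 12 largest rises among called genes with a mean of at least 5 CPM in at least 1 of the 2 groups, a level that several reached only in the mutant group, included 10 interferon-stimulated genes (MX2, OAS1, IFI44L, OASL, MX1, RSAD2, HERC5, CMPK2, OAS2 and IFIT2), with the receptor tyrosine kinase ERBB4 and the neuronal microtubule protein MAP2 as the others. The calls depended on all 4 libraries. Higher and lower counts were 301 and 260 without mutant replicate 1, 89 and 30 without mutant replicate 2, 474 and 548 without wild type replicate 1, and 121 and 40 without wild type replicate 2, where the lone sample of a group was assumed to vary like the other groups. With upper-quartile scaling they were 1071 and 764, so that 58.4% of calls were higher, against 48.3% with the scaling used here.

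**Figure D1:**
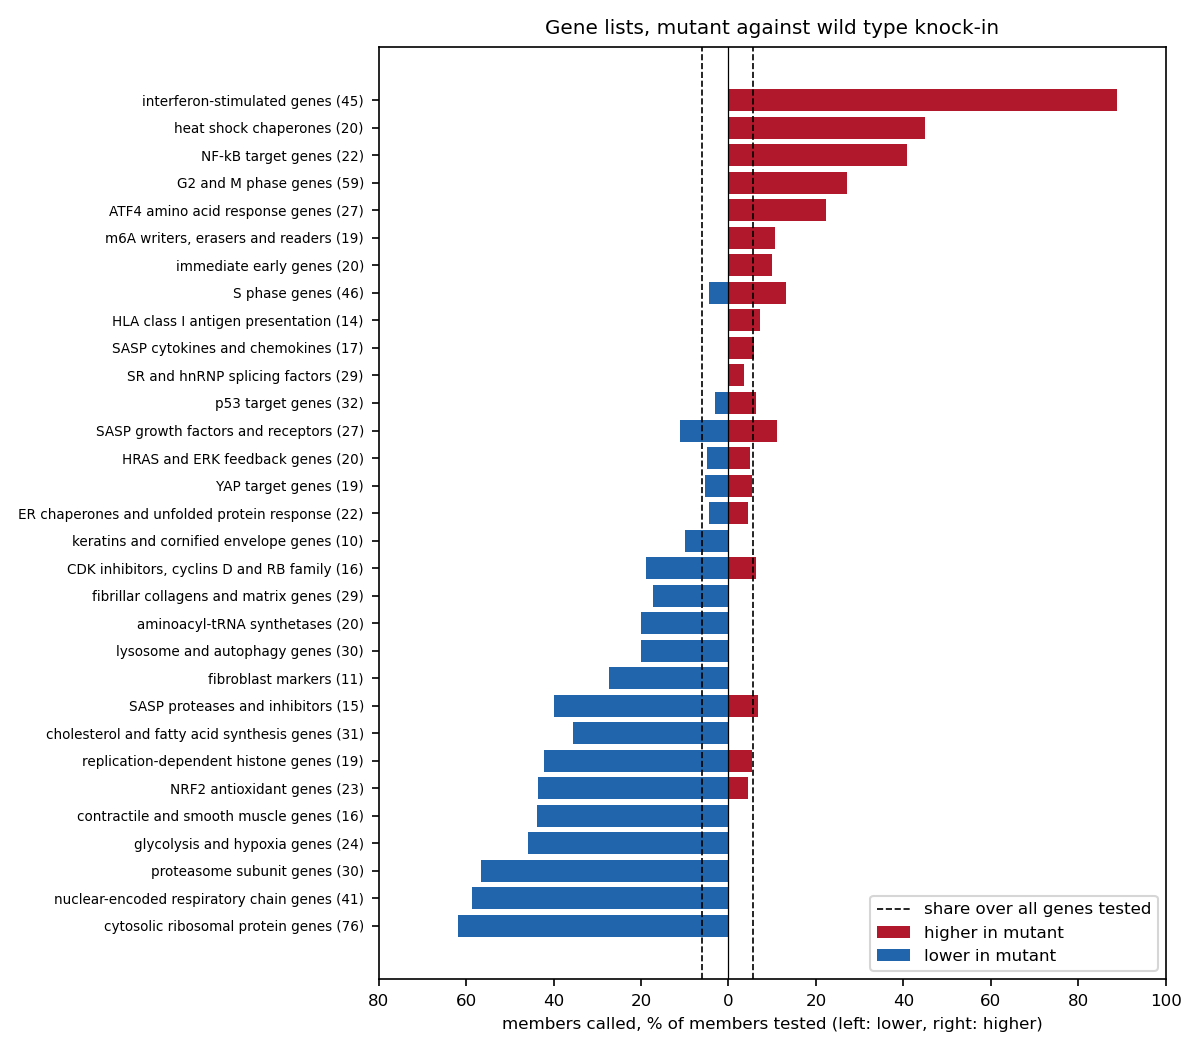
Horizontal bars give, for each gene list with at least 10 members tested (number in brackets), the percentage of members called higher (red, to the right) and lower (blue, to the left) in mutant against wild type knock-in samples, and dashed lines give the same over all genes tested (5.57% and 5.97%). Interferon-stimulated genes reach furthest to the right with 40 of 45, and cytosolic ribosomal protein genes furthest to the left with 47 of 76.

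Interferon-stimulated genes were the group with the highest share of rises: 40 of 45 rose in the mutant samples, none fell, and the median log2 change of the list was 1.37. MX2, a dynamin-like GTPase that blocks viruses at the nucleus, was at 3.56 and 2.19 CPM in the wild type samples and 21.3 and 20.8 CPM in the mutant samples, a log2 change of 2.89 ± 0.21 (SE, n = 2 and 2; edgeR adjusted p = 4.6e-05). OAS1, which makes the 2-5A messenger that activates RNase L on sensing double-stranded RNA, was at 2.13 and 2.24 CPM against 14.9 and 12.9 CPM, a change of 2.66 ± 0.25 (edgeR adjusted p = 0.00019). IFI44L, a cytosolic protein of the interferon response, was at 26.9 and 17.1 CPM against 132 and 122 CPM, a change of 2.54 ± 0.20 (edgeR adjusted p = 0.00022). In all 3 genes both mutant samples lay above both wild type samples, as in 44 of the 45 list members (62.5% of all genes tested did not overlap, in either direction). MX1, the cytoplasmic relative of MX2, rose from 20.7 and 15.3 CPM to 105 and 88.0 CPM. Without wild type replicate 2 the list still had 23 members called higher and without mutant replicate 2 it had 26, and the median stayed between 1.19 and 1.52 with any knock-in sample left out.

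**Figure D2:**
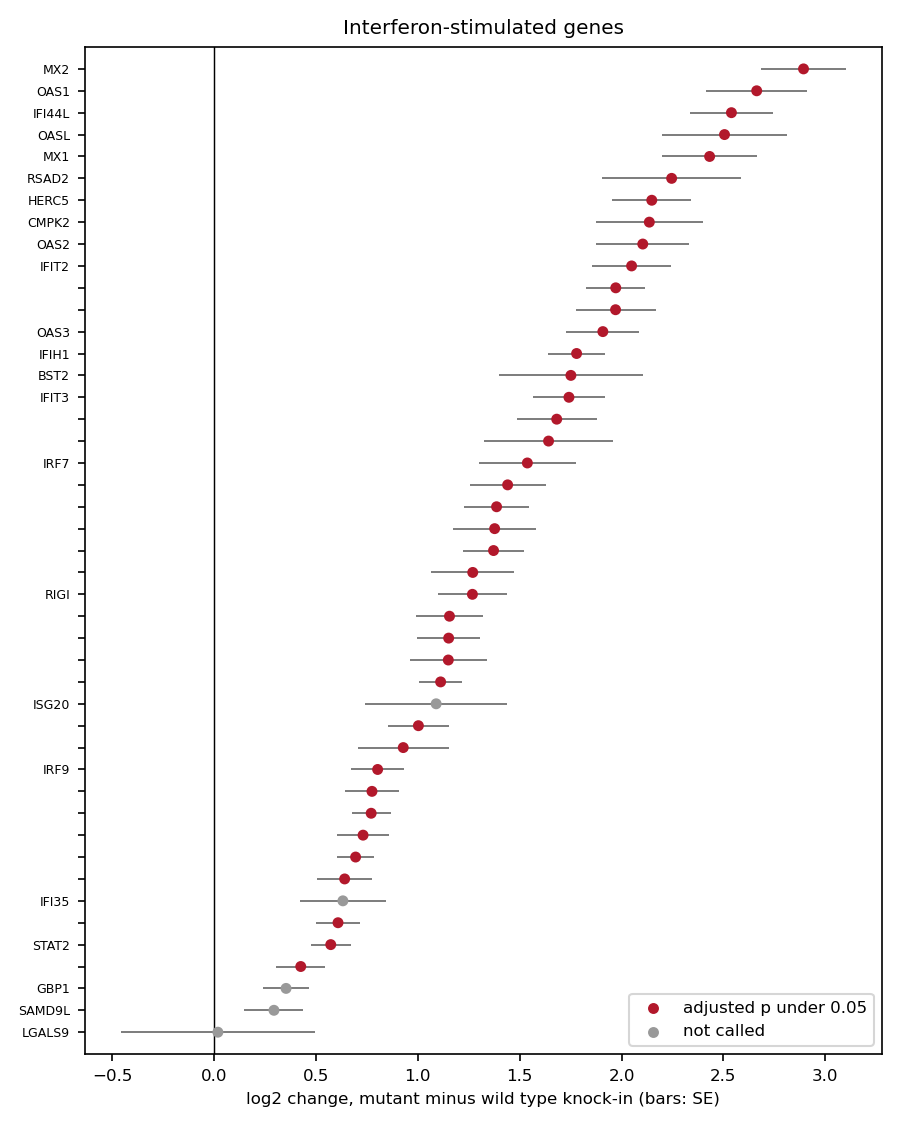
Points give the log2 change, mutant minus wild type knock-in, of the 45 interferon-stimulated genes, with bars of 1 SE, ordered by size and labelled where the gene is followed by name, in red where the edgeR adjusted p was under 0.05. All 45 points lie right of 0, from LGALS9 at 0.02 to MX2 at 2.89, and 5 are not called.

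The promoters of 4 of these genes are shown for the letters they share. RefSeq (GRCh38.p14) gave a promoter for 37 of the 45 genes. Among all runs of 8 letters in the 250 bases before a start, on either strand, AACTGAAA (TTTCAGTT on the other strand) was the one whose share in these 37 genes most exceeded its share in all genes: 13 of 37 (35.1%) held it, against 468 of 27305 genes with an entry (1.71%). The letters were picked for that share, so it is a description and supports nothing. Among called genes with an entry they stood in 25 of 668 that were higher (3.74%) and 11 of 821 that were lower (1.34%), against 176 of 11626 tested (1.51%), and the higher genes include the list itself. The 4 largest rises of the list that hold the letters are printed 5′ to 3′ along the gene, with the shared letters in capitals: RSAD2 at chr2:6877527-6877776 on the plus strand, OAS3 at chr12:112938224-112938473 on the plus strand, BST2 at chr19:17405631-17405880 on the minus strand and IFIT3 at chr10:89332279-89332528 on the plus strand.
RSAD2: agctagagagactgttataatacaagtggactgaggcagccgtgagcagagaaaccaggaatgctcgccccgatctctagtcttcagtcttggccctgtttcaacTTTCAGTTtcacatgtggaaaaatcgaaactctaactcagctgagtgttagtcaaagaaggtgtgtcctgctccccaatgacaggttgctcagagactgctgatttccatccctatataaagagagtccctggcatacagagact
OAS3: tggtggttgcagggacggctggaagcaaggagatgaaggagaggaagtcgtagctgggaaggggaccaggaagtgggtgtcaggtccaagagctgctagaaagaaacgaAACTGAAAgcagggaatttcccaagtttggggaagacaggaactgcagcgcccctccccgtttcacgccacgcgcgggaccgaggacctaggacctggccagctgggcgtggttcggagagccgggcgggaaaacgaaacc
BST2: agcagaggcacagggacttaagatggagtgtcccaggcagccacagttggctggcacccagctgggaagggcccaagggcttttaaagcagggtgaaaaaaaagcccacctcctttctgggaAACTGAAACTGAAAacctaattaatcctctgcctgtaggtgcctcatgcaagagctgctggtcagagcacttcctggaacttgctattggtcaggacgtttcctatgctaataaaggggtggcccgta
IFIT3: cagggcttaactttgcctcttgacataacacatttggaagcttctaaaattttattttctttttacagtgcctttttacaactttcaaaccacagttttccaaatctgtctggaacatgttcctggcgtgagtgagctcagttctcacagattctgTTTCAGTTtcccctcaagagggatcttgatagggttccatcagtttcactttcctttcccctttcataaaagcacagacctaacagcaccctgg
The letters began 145 bases before the start in RSAD2, 141 in OAS3 and 94 in IFIT3, and stood at 2 places in BST2, the farther at 128. RSAD2, also called viperin, which makes a chain-terminating nucleotide, was at 4.88 and 2.24 CPM in wild type and 17.4 and 15.6 CPM in mutant samples. Its groups did not overlap, and its call (edgeR adjusted p = 0.0046) was lost without mutant replicate 2 (0.059). OAS3, of the same enzyme family as OAS1, was at 59.5 and 46.8 CPM against 202 and 196 CPM. BST2 (tetherin), which holds budding viruses at the cell surface, was at 0.875 and 0.828 CPM against 2.70 and 3.06 CPM, and IFIT3, a partner of IFIT1 and IFIT2, at 51.2 and 42.8 CPM against 166 and 147 CPM. All 4 genes were higher in both mutant samples. OAS3 and IFIT3 kept their calls with any knock-in sample left out, and BST2 (edgeR adjusted p = 0.011) lost its own without mutant replicate 1 (0.058), mutant replicate 2 (0.12) or wild type replicate 2 (0.11). Binding of any factor to these letters was not tested.

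Other members are given by role, with IFIH1, RIGI, STAT2, IRF7 and IRF9 chosen after their values were seen. Among sensors, IFIH1 (MDA5), which detects long double-stranded RNA, was at 21.9 and 19.0 CPM in wild type and 66.4 and 73.8 CPM in mutant samples, and RIGI, which detects RNA ends with a triphosphate, was at 73.0 and 61.5 CPM against 170 and 154 CPM. Both rose, by 1.78 ± 0.14 and 1.27 ± 0.17 on the log2 scale. Among the factors that carry the signal, STAT2 rose from 184 and 170 CPM to 275 and 252 CPM, and IRF9 from 36.3 and 36.0 CPM to 62.1 and 64.0 CPM. These factors rose by 0.57 and 0.80 on the log2 scale, each below the list's median. IRF7, which amplifies interferon genes, rose from 7.31 and 7.06 CPM to 20.6 and 21.1 CPM. IFIH1 kept its call with any knock-in sample left out, whereas IRF7 and IRF9 lost theirs without mutant replicate 2 (0.072 and 0.077) or wild type replicate 2 (0.069 and 0.068), and STAT2 and RIGI without wild type replicate 2 (0.090 and 0.050). Of the effectors, IFIT2, which binds viral RNA, rose from 12.3 and 10.4 CPM to 46.3 and 47.5 CPM, and OAS2 from 18.4 and 13.2 CPM to 74.6 and 60.1 CPM. The nucleotide kinase CMPK2 rose from 3.88 and 2.19 CPM to 13.8 and 12.4 CPM, and OASL, an activator of RIGI, from 1.19 and 1.17 CPM to 5.14 and 8.32 CPM. The 5 members not called were ISG20 (1.09, edgeR adjusted p = 0.061), IFI35 (0.63, 0.070), GBP1 (0.35, 0.063), SAMD9L (0.29, 0.21) and LGALS9 (0.02, 0.99). ISG20, IFI35, GBP1 and SAMD9L were each called by at least 1 alternative, and LGALS9 by none.

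Interferon genes were at or near the floor. IFNB1 had 1 and 1 counts in the wild type samples, 2 and 3 in the mutant samples and 0 in the 6 others, under the filter, and at this depth a difference was not detectable. IFNA1 had 2 counts in mutant replicate 2 and 0 elsewhere, and IFNL1, IFNL2, IFNL3, IFNK and IFNG had 0 in every sample. None of the 7 interferon and receptor genes tested was called. The receptor chain IFNAR1 was at 140 and 146 CPM in wild type and 115 and 116 CPM in mutant samples, a log2 change of -0.31 with a 95% interval of -0.53 to -0.09 (edgeR adjusted p = 0.067), and 6 of 14 alternatives called it lower, with p from 0.00070 (the 8 senescent samples) to 0.047. IFNGR2, a chain of the interferon-gamma receptor, was at 54.8 and 59.3 CPM against 60.3 and 57.6 CPM, with an interval of -0.14 to 0.23.

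Antigen presentation genes of HLA class I, many of which also answer to interferon, had 1 of 14 members called higher (7.14%, against 5.57% over all genes). That was TAP2, a subunit of the peptide transporter into the ER, at 35.0 and 34.8 CPM in wild type and 53.8 and 51.2 CPM in mutant samples (0.59 ± 0.09, edgeR adjusted p = 0.0030), and its call was lost without wild type replicate 2 (0.053). B2M, the light chain of class I molecules, had a 95% interval of -0.25 to 0.10, so for this gene a rise of the size of the interferon-stimulated median lay outside the interval.

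Across the 5 groups the mutant knock-in samples had the highest mean for 44 of the 45 interferon-stimulated genes, with GBP1, a GTPase, highest in the knockout samples. The median over the 45 genes of the group means was 3.44 CPM in control, 6.36 CPM in senescent control, 10.3 CPM in knockout, 20.5 CPM in wild type and 54.0 CPM in mutant samples. The summed level of the list was 839 and 902 CPM in control, 899 and 966 CPM in senescent control, 1216 and 1413 CPM in knockout, 2069 and 1817 CPM in wild type and 4151 and 3932 CPM in mutant samples. The 5 groups stood in this order in the median. METTL3 RNA was also highest in the mutant group. In the groups without a knock-in it stood in the opposite order, at a mean of 78.4 CPM in control, 54.8 CPM in senescent control and 27.4 CPM in knockout samples. Its part in the result was not tested.

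**Figure D3:**
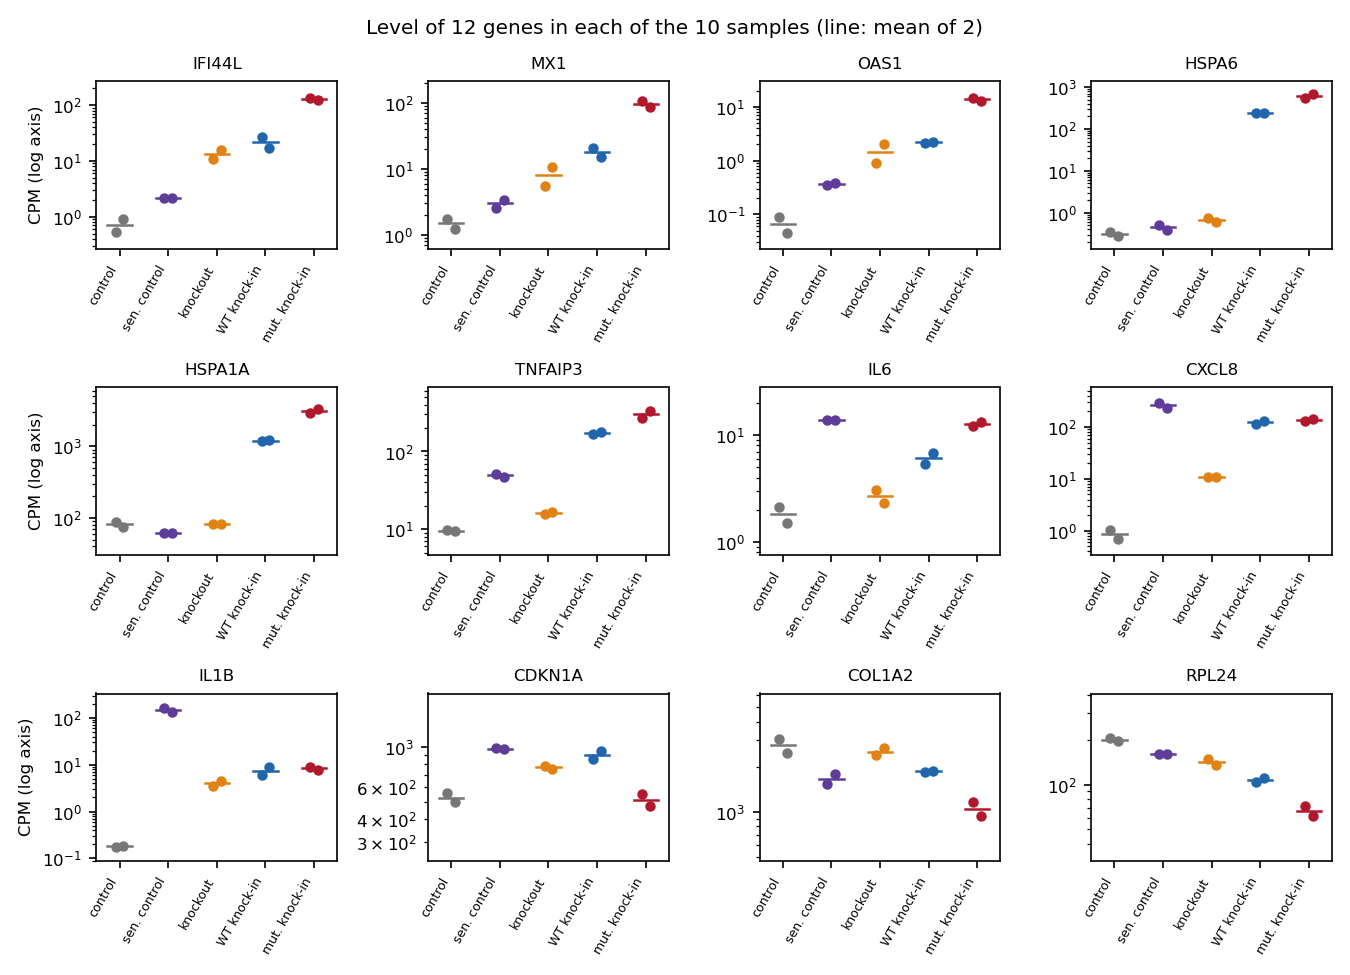
Each panel gives the level of 1 gene in CPM on a log axis in each of the 10 samples, as points by group with a line at the mean of 2. IFI44L, MX1, OAS1, HSPA6, HSPA1A and TNFAIP3 are highest in both mutant knock-in samples, CXCL8 and IL1B have knock-in groups that overlap or nearly so and senescent control samples above them, and COL1A2 and RPL24 are lowest in the mutant samples.

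Among heat shock chaperones 9 of 20 were higher, none was lower, and the median log2 change was 0.49. HSPA1A, the main inducible HSP70, was at 1205 and 1212 CPM in wild type and 2901 and 3329 CPM in mutant samples, a change of 1.37 ± 0.10 (edgeR adjusted p = 4.6e-05), and its near-identical copy HSPA1B moved by 1.42 ± 0.11, where reads of the pair may be split between them. HSPA6, a strictly inducible HSP70, was at 246 and 236 CPM against 534 and 677 CPM, a change of 1.33 ± 0.11 (edgeR adjusted p = 0.00010). These genes kept their calls with any knock-in sample left out. Both knock-in groups lay far above the others in HSPA6, whose mean was 0.315 CPM in control, 0.450 CPM in senescent control and 0.666 CPM in knockout samples. DNAJB1, the co-chaperone of HSP70, rose by 0.91 ± 0.09 and the small heat shock protein CRYAB by 1.07 ± 0.10. Both kept the call with any knock-in sample left out. Also called were HSPH1, HSPD1, HSPE1 and BAG3, none of which stayed called without mutant replicate 2 (0.11 to 0.33) or either wild type sample. The constitutive HSPA8, at 2487 and 2722 CPM against 2435 and 2440 CPM, was not called (95% interval -0.28 to 0.09), nor was the regulator HSF1 (-0.48 to -0.03, edgeR adjusted p = 0.13), which fits of the 4 knock-in samples or the 8 senescent samples called lower (0.013 and 0.0054). With 1 knock-in sample left out, the count was 6 without mutant replicate 1 and 5 without mutant replicate 2, wild type replicate 1 or wild type replicate 2.

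Among NF-kB target genes 9 of 22 were higher, none was lower, and the median log2 change was 0.40. TNFAIP3 (A20), a ubiquitin-editing enzyme that shuts NF-kB signalling off, was at 166 and 177 CPM in wild type and 273 and 332 CPM in mutant samples, a change of 0.82 ± 0.11 (edgeR adjusted p = 0.0013) that was called with any knock-in sample left out. The adhesion molecule VCAM1 was at 9.25 and 8.48 CPM against 15.1 and 15.6 CPM, and the NF-kB subunit RELB at 24.8 and 28.4 CPM against 40.2 and 44.7 CPM. Neither overlapped between groups, and RELB (edgeR adjusted p = 0.0044) lost its call without mutant replicate 2 (0.077), VCAM1 (0.010) without mutant replicate 1 (0.062), mutant replicate 2 (0.12) or wild type replicate 2 (0.12). NFKB1, TRAF1, PTGS2, SOD2, TNFAIP2 and CYLD were the other members called. ICAM1 (95% interval -0.06 to 0.52) and the inhibitor NFKBIA (-0.08 to 0.34) were not. TNFAIP2 lost its call with RLE scaling, DESeq2, a replicate block, METTL3 kept in totals or an offset for exonic length. PTGS2 lost its call with DESeq2, and SOD2 in a fit of the 4 knock-in samples or with the exonic offset. The list had 7 members higher with DESeq2 and 12 in the 8 senescent samples. The count was 5 without mutant replicate 1, 1 without mutant replicate 2, 5 without wild type replicate 1 and 2 without wild type replicate 2.

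Among 17 SASP cytokines and chemokines tested, IL6 alone was called (the share over all genes is 5.57% higher), and the list's median change was 0.14. IL6, the defining SASP cytokine, was at 5.38 and 6.77 CPM in wild type and 12.2 and 13.3 CPM in mutant samples, a change of 1.06 ± 0.17 (edgeR adjusted p = 0.0044) that lost its call without mutant replicate 2 (0.077). The other named cytokines lay close together in the 2 groups. CXCL8, a neutrophil attractant, was at 117 and 132 CPM against 129 and 143 CPM (0.13, 95% interval -0.13 to 0.39). IL1A, the membrane-bound alarm cytokine upstream of the SASP, was at 44.7 and 48.1 CPM against 47.6 and 58.1 CPM (0.19, interval -0.06 to 0.44), and IL1B at 6.06 and 8.92 CPM against 9.03 and 7.65 CPM (0.14, interval -0.30 to 0.58). For CXCL8, IL1A and IL1B the groups overlapped, and differences of 1 on the log2 scale lay outside the intervals. CXCL1 had a change of 0.33 (interval -0.17 to 0.84) and the monocyte attractant CCL2 of -0.09 (interval -0.48 to 0.29).

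SASP proteases and their inhibitors had 1 member higher and 6 lower of 15 tested, with a median of -0.20. PLAU, the urokinase that activates plasmin, fell from 1574 and 1668 CPM to 993 and 913 CPM (-0.77 ± 0.10, edgeR adjusted p = 0.0017), called with any knock-in sample left out. SERPINB2, an inhibitor of PLAU, and TIMP3, an inhibitor of metalloproteinases, fell as well, by 0.45 and 0.40 on the log2 scale, as did TIMP1 and the cathepsins CTSB and CTSL. The collagenase MMP1 was at 656 and 758 CPM against 778 and 674 CPM (interval -0.18 to 0.26) and the stromelysin MMP3 at 45.7 and 54.0 CPM against 49.7 and 43.9 CPM (interval -0.33 to 0.14), so the groups overlapped in both. MMP10 was called higher at a low level, 0.250 and 0.438 CPM against 1.32 and 1.06 CPM, and lost its call with any of the 4 samples left out (0.093 to 0.11). The count of lower members was 1 without mutant replicate 1, mutant replicate 2 or wild type replicate 2 and 3 without wild type replicate 1.

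SASP growth factors and receptors were split, with 3 higher (PDGFA, VEGFC and VEGFA) and 3 lower (STC1, AREG and HGF) of 27. That is 11.1% each, against 5.57% and 5.97% over all genes. STC1, a secreted glycoprotein hormone, fell from 1591 and 1801 CPM to 1081 and 969 CPM (-0.73 ± 0.10, edgeR adjusted p = 0.0016), and lost its call without mutant replicate 2 (0.050). PDGFA, a growth factor for fibroblasts, was at 7.06 and 8.33 CPM against 11.9 and 14.4 CPM, and its call was lost without mutant replicate 2 (0.16), wild type replicate 1 (0.076) or wild type replicate 2 (0.076). Without mutant replicate 2 none of the 6 was called, and without any other knock-in sample 1 of them at most stayed in each direction.

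ATF4 target genes, which supply amino acids when translation is stalled, had 6 of 27 members higher and none lower, with a median of 0.24. The transcription factor CEBPG, a partner of ATF4, was at 33.9 and 34.2 CPM in wild type and 53.1 and 62.6 CPM in mutant samples (0.77 ± 0.10, edgeR adjusted p = 0.0017) and kept its call with any knock-in sample left out. The amino acid transporter SLC7A5 rose from 108 and 106 CPM to 155 and 175 CPM, and SESN2, a leucine sensor that restrains mTORC1, from 127 and 132 CPM to 184 and 203 CPM. Both lost the call without mutant replicate 2 (0.097 and 0.076) or wild type replicate 2 (0.086 and 0.053). TRIB3, SLC3A2 and VEGFA were the other 3. The count was 4 without mutant replicate 1, 3 without wild type replicate 1 and 1 without mutant replicate 2 or wild type replicate 2. Aminoacyl-tRNA synthetases, some of which are ATF4 targets, had 4 of 20 lower and none higher, 1 without wild type replicate 1 and 0 without any other knock-in sample. Of 22 ER chaperones and unfolded protein response genes 1 was higher, the ER stress sensor ERN1 (0.64 ± 0.10), and 1 lower, the ER chaperone HYOU1 (-0.35 ± 0.10). That is 4.55% each, against 5.57% and 5.97% over all genes. Both genes lost the call without mutant replicate 2 or wild type replicate 2.

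Of 59 genes of G2 and M phase 16 rose, none fell and 43 were not called, with a median log2 change of 0.55. KIF15, a spindle motor, was at 3 and 1.80 CPM in wild type and 5.83 and 8.25 CPM in mutant samples, and HMMR, a spindle assembly factor, at 4.75 and 4.04 CPM against 8.97 and 11 CPM. The proliferation marker MKI67 was at 27.0 and 26.0 CPM against 50.4 and 53.5 CPM (0.97 ± 0.21, edgeR adjusted p = 0.019), with a mean of 283 CPM in control, 37.3 CPM in senescent control and 98.4 CPM in knockout samples. The groups did not overlap in these 3 genes, and MKI67 lost its call with any of the 4 samples left out (0.066 to 0.14). The mitotic cyclin CCNB1 was at 16.4 and 17.9 CPM against 18.4 and 17.4 CPM and was not called (interval -0.18 to 0.30). The count of 16 was 11 without mutant replicate 1, 0 without mutant replicate 2, 9 without wild type replicate 1 and 1 without wild type replicate 2, while the median stayed between 0.46 and 0.55.

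S phase genes had 6 of 46 higher and 2 lower. The lower share was 4.35%, below the 5.97% over all genes, so the list had no excess of falls. Its higher share lay above the 5.57% over all genes. The replication licensing factor CDC6 was at 6.25 and 6.53 CPM against 10.4 and 10.8 CPM (0.72 ± 0.12, edgeR adjusted p = 0.0046), and DTL, which directs licensing factors to degradation, at 5 and 5.80 CPM against 9.66 and 11.3 CPM (0.95 ± 0.14). PCNA, the sliding clamp of DNA polymerase, fell from 41.9 and 48.8 CPM to 34.9 and 29 CPM. All 3 lost the call without mutant replicate 2 (0.062, 0.066 and 0.16), and CDC6 and PCNA also without wild type replicate 2 (0.056 and 0.18). Higher members numbered 3 without mutant replicate 1, 0 without mutant replicate 2, 2 without wild type replicate 1 and 1 without wild type replicate 2. LMNB1, the lamin lost in senescence, was at 2.38 and 2.39 CPM against 3.70 and 2.80 CPM and was not called (0.45, interval 0.00 to 0.90, edgeR adjusted p = 0.18).

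Replication-dependent histone genes had 8 of 19 lower and 1 higher, where 46 were sought and 19 found in the table. H2BC21 fell from 56.0 and 56.8 CPM to 33.3 and 29.2 CPM (-0.85 ± 0.10, edgeR adjusted p = 0.00074), called with any knock-in sample left out. The linker histone H1-2 fell from 30.9 and 33.4 CPM to 21.4 and 19.8 CPM, and the linker histone H1-5 rose from 2.88 and 2.48 CPM to 5.14 and 4.53 CPM. Histone genes are near-identical copies between which reads may be split. The count of 8 was 3 without mutant replicate 1, 4 without wild type replicate 1, and 1 without mutant replicate 2 or wild type replicate 2.

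CDKN1A (p21), the CDK inhibitor that p53 induces to stop the cell cycle, fell from 855 and 947 CPM in wild type to 552 and 473 CPM in mutant samples (-0.81 ± 0.10, edgeR adjusted p = 0.0010), and the call held with any knock-in sample left out. Its mean was 526 CPM in control, 974 CPM in senescent control and 771 CPM in knockout samples. Of 32 p53 target genes, CDKN1A was the 1 called lower and SESN2 and GADD45B were called higher. That is 3.1% lower and 6.25% higher, against 5.97% and 5.57% over all genes. Changes were negative in 15 members, 13 of these without overlap, and positive in 17, 15 of these without overlap. Over all genes tested, 62.5% did not overlap, in either direction. GADD45B (edgeR adjusted p = 0.022) lost its call with DESeq2 (0.099) and with any of the 4 samples left out (0.072 to 0.17). MDM2, the p53 ligase, was not called (95% interval -0.48 to 0.00, edgeR adjusted p = 0.18), but was called lower by 4 of 14 alternatives, with p down to 0.011. CDKN2A, the gene of p16, was at 40.1 and 45.5 CPM against 39.1 and 40.1 CPM (interval -0.32 to 0.09). CDKN1B and the cyclin CCND3 also fell, and RBL2, a relative of RB1, rose by 0.32. CDKN1B and RBL2 lost the call with any of the 4 samples left out, CCND3 without any but wild type replicate 1, and RBL2 lost it under 11 of the 14 alternatives.

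HRAS, a RAS gene, was lower in the mutant samples: 49.9 and 45.4 CPM against 31.3 and 24.9 CPM (-0.76 ± 0.11, edgeR adjusted p = 0.0025), called with any knock-in sample left out. Its mean was 14.9 CPM in control, 64.1 CPM in senescent control and 42.2 CPM in knockout samples, so the 2 groups compared differed in the RNA of this gene, and reads of the introduced and the endogenous gene cannot be told apart. The sources used here do not say which RAS the retrovirus carried. Its part in the other results was not tested. Of the 20 HRAS and ERK feedback genes, PHLDA1 (0.45 ± 0.09) was the 1 other called. So 5% were higher and 5% lower, against 5.57% and 5.97% over all genes. PHLDA1 lost the call without mutant replicate 1, mutant replicate 2 or wild type replicate 1. Among immediate early genes 2 of 20 were higher (10%, against 5.57% over all genes). ARC was at 4.13 and 5.94 CPM against 13.4 and 15 CPM (1.48 ± 0.25), and lost its call without mutant replicate 2. KLF4 (0.45 ± 0.13) lost its call with any of the 4 knock-in samples left out.

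Of 19 genes for m6A writers, erasers and readers, 2 were called higher (10.5%, against 5.57% over all genes). WTAP, the regulatory subunit of the writer complex, was at 139 and 143 CPM in wild type and 171 and 192 CPM in mutant samples (0.36 ± 0.10, edgeR adjusted p = 0.036), and HNRNPC, a nuclear RNA-binding protein, at 468 and 498 CPM against 642 and 745 CPM (0.52 ± 0.09, 0.0058). WTAP lost the call with any of the 4 samples left out (0.081 to 0.29), HNRNPC without mutant replicate 2 (0.096) or wild type replicate 2 (0.058). METTL14 was at 31.1 and 32.5 CPM against 30.4 and 31.0 CPM and was not called (-0.05, interval -0.36 to 0.26). Among 29 splicing factors TRA2B alone was called (0.40 ± 0.10), so 3.45% were higher, against 5.57% over all genes. TRA2B too lost the call with any of the 4 left out.

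Some fibroblast matrix and contractile genes fell. Of 29 matrix genes 5 fell, none rose and 24 were not called, with a median of -0.20, and of 16 contractile genes 7 fell, none rose and 9 were not called, with a median of -0.30 and 5 positive changes, up to 1.42 for the smooth muscle myosin MYH11 (edgeR adjusted p = 0.14). COL1A2, a chain of type I collagen, was at 1842 and 1886 CPM in wild type and 1155 and 943 CPM in mutant samples (-0.83 ± 0.13, edgeR adjusted p = 0.0042). COL3A1, of type III collagen, was at 275 and 283 CPM against 208 and 168 CPM, and COL1A1, the partner chain of COL1A2, at 1251 and 1333 CPM against 1030 and 745 CPM, not called (-0.54, interval -0.98 to -0.10, edgeR adjusted p = 0.10, DESeq2 adjusted p = 0.018). The groups did not overlap in these genes. ACTA2, smooth muscle actin, fell from 147 and 161 CPM to 102 and 99.2 CPM, and TAGLN, an actin-binding protein of smooth muscle, from 206 and 222 CPM to 143 and 137 CPM. Matrix genes called numbered 4 without mutant replicate 1, 2 without wild type replicate 1, and 0 without mutant replicate 2 or wild type replicate 2, and contractile genes 2, 5, 0 and 0. YAP target genes, which respond to tension, had 1 higher (LATS2) and 1 lower (AXL) of 19. That is 5.26% each, against 5.57% and 5.97% over all genes. Both genes lost the call without mutant replicate 2, wild type replicate 1 or wild type replicate 2, AXL also without mutant replicate 1.

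Lists of metabolic and protein-making genes had many small falls. Genes called lower had a median level of 5.96 log2 CPM, against 3.65 for genes called higher and 3.83 for all genes tested. The part of the level of a gene in these list counts was not tested. Of 76 cytosolic ribosomal protein genes 47 fell and all 76 had a negative log2 change, with a median of -0.35. RPL24 was at 103 and 110 CPM in wild type and 72.0 and 61.6 CPM in mutant samples (-0.68 ± 0.10, edgeR adjusted p = 0.0025). Their summed level was 9497 and 10401 CPM against 7896 and 7770 CPM, and many have processed pseudogenes that can share reads. Of 41 nuclear-encoded respiratory chain genes 24 fell (median -0.38), led by SDHC of complex II, at 89.8 and 94.9 CPM against 56.9 and 57.8 CPM (-0.69 ± 0.09, 0.0015). Of 30 proteasome subunit genes 17 fell (median -0.31), led by the ATPase subunit PSMC3, at 40.6 and 40.7 CPM against 26.5 and 27.3 CPM. None of these 3 lists had a member called higher. SDHC and PSMC3 kept the call with any knock-in sample left out, and RPL24 lost it without mutant replicate 2 (0.055). Counts lower in the ribosomal, respiratory and proteasome lists were 7, 7 and 5 without mutant replicate 1, 0, 1 and 1 without mutant replicate 2, 27, 17 and 9 without wild type replicate 1, and 1, 1 and 1 without wild type replicate 2, whereas the medians stayed between -0.42 and -0.30, -0.45 and -0.32, and -0.37 and -0.27.

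Glycolysis, sterol and antioxidant lists also had members that fell. Of 24 glycolysis and hypoxia genes 11 fell (median -0.30), with GAPDH at 1909 and 2135 CPM against 1423 and 1330 CPM (-0.55 ± 0.09, edgeR adjusted p = 0.0045). Of 31 cholesterol and fatty acid synthesis genes 11 fell (median -0.34). Of 23 NRF2 antioxidant genes 10 fell, 1 rose (OSGIN1) and 12 were not called, among them AKR1C2 with the highest change of the list (1.65, edgeR adjusted p = 0.058), with NQO1, a quinone reductase, at 88.9 and 94.0 CPM against 55.1 and 61.6 CPM (-0.65 ± 0.10), and the ferritin heavy chain FTH1 at 2712 and 2907 CPM against 1867 and 1903 CPM. Of 3 metallothioneins tested 2 fell, MT2A from 278 and 334 CPM to 201 and 161 CPM, and of 30 lysosome and autophagy genes 6 fell (1 without mutant replicate 1, 3 without wild type replicate 1, 0 without mutant replicate 2 or wild type replicate 2). NQO1 alone of these kept its call with any knock-in sample left out. GAPDH, FTH1 and MT2A lost it without mutant replicate 2 (0.072, 0.065 and 0.082) or wild type replicate 2 (0.070, 0.072 and 0.074). Counts lower in the glycolysis, sterol and NRF2 lists were 5, 3 and 5 without mutant replicate 1, 0, 0 and 1 without mutant replicate 2, 7, 6 and 9 without wild type replicate 1, and 0, 0 and 1 without wild type replicate 2.

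**Figure D4:**
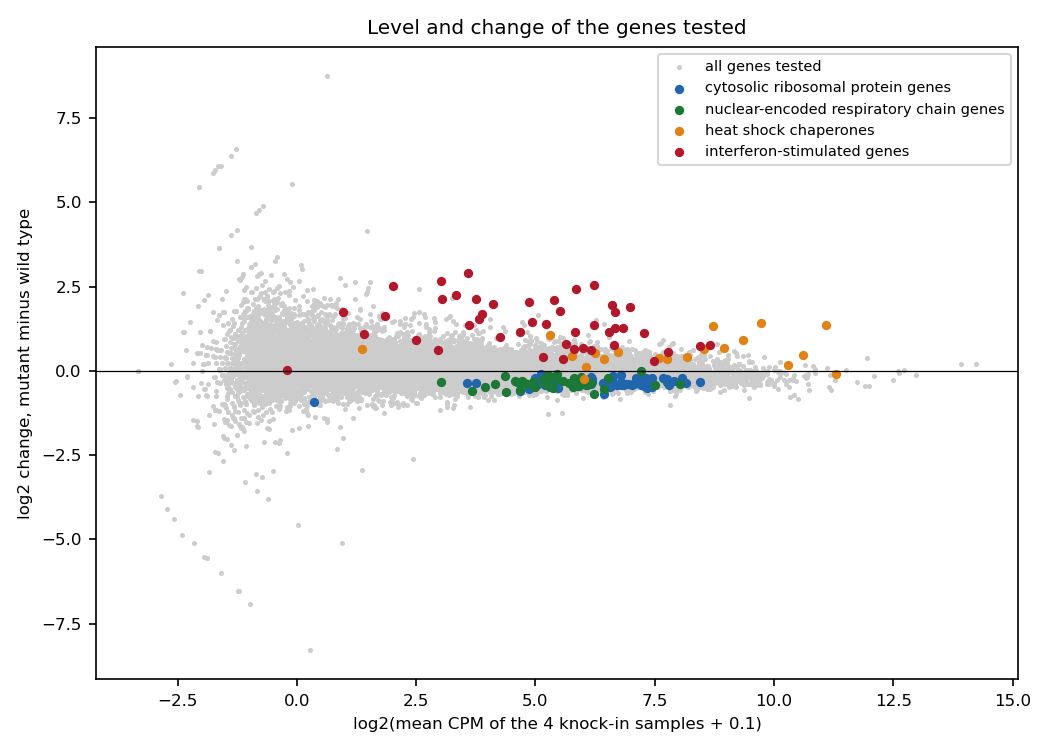
Each point is 1 of the 16915 genes tested, by its level (log2 of the mean CPM of the 4 knock-in samples plus 0.1) and its log2 change, mutant minus wild type knock-in, with 4 gene lists in colour. Interferon-stimulated genes spread above 0 up to 2.89, while cytosolic ribosomal protein and respiratory chain genes lie in a narrow band around medians of -0.35 and -0.38.

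The sign of the change moved with the length of the gene. Among the 13394 protein-coding genes tested, the eighth with the shortest span from start to end (up to 7.39 kb, from the GENCODE annotation) had 58 genes higher and 202 lower and a median log2 change of -0.12, and the eighth with the longest span (from 151 kb) had 199 higher and 46 lower and a median of 0.13. Genes called higher had a median span of 51.9 kb, genes called lower 19.8 kb and all tested genes 28.9 kb. The ribosomal list had a median span of 5.45 kb, the respiratory chain list 12 kb, the proteasome list 17.7 kb and the interferon-stimulated list 20.3 kb. With an offset per sample for gene span, added after the data were seen, 45 ribosomal, 25 respiratory and 16 proteasome genes were lower and 42 interferon-stimulated genes were higher, and with one for exonic length 49, 23, 16 and 39. Neither offset removed the trend: the median change of the shortest and longest eighths was -0.13 and -0.01 with the first and -0.11 and 0.07 with the second. The part of gene length in the list counts was not tested further. Across genes Pearson r of the change with log2 span was 0.19, a description over genes that share the same 4 libraries. Of 780 lincRNA genes tested 28 were higher (3.59%) and 4 lower (0.513%), both shares below those over all genes (5.57% and 5.97%). Their median log2 change was nevertheless 0.22, against -0.01 for protein-coding genes and 0.02 over all genes. LincRNAs took 3.40% and 2.62% of the counts in wild type and 3.61% and 3.56% in mutant samples.

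**Figure D5:**
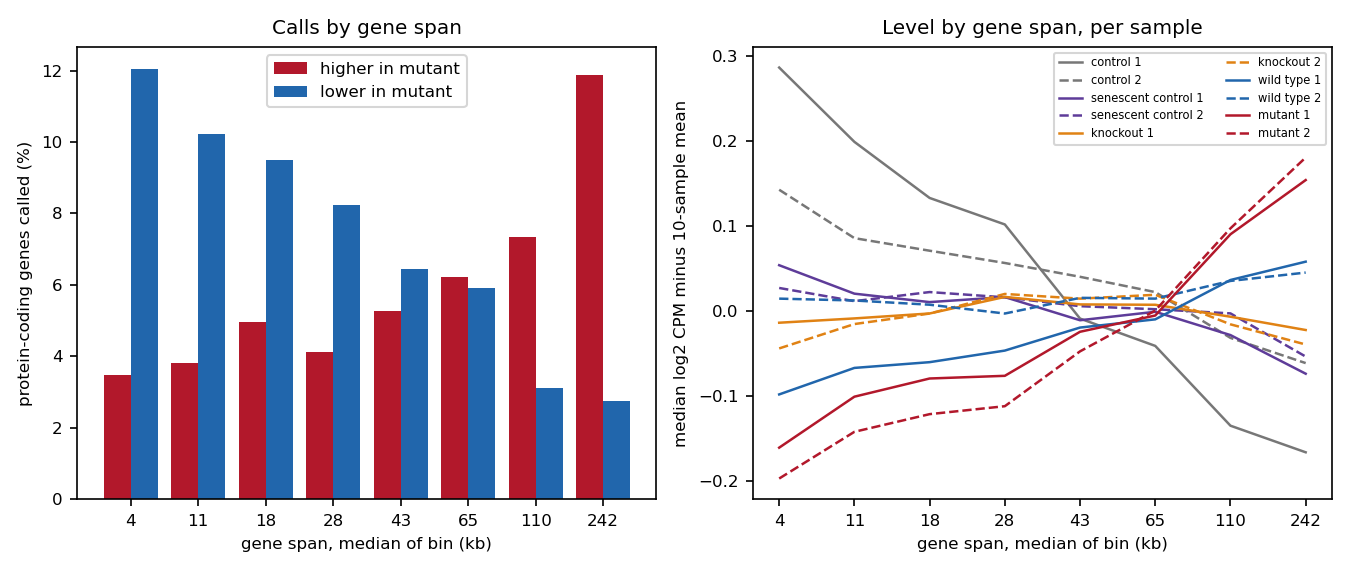
The left panel gives the percentage of protein-coding genes called higher (red) and lower (blue) in mutant against wild type knock-in samples in 8 equal bins of gene span, labelled by the bin's median in kb, and the right panel gives each sample's median log2 CPM minus the mean of the 10 samples in the same bins. Calls go from 3.46% higher and 12.1% lower in the shortest bin to 11.9% and 2.75% in the longest, and the 2 mutant samples (red lines) run from -0.16 and -0.20 to 0.15 and 0.18.

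Of the 12 largest falls, KRTAP2-3 alone was in a gene list. ATXN7L3B, a cytoplasmic relative of a deubiquitinase subunit, was at 66.1 and 67.2 CPM in wild type and 28.9 and 26.7 CPM in mutant samples (-1.26 ± 0.09, edgeR adjusted p = 4.6e-05). The transporter SLC16A6 was at 295 and 308 CPM against 158 and 138 CPM (-1.03 ± 0.11, 0.00041), with 25.9 CPM in control, 457 CPM in senescent control and 146 CPM in knockout samples. INMT, an indolethylamine methyltransferase, was at 16.7 and 16.3 CPM against 7.78 and 8.05 CPM (-1.06 ± 0.16, 0.0036). Lack of overlap between the groups was a condition for picking these falls. ATXN7L3B and SLC16A6 kept the call with any knock-in sample left out, whereas INMT lost it without mutant replicate 2. The other 9 of the 12 were the readthrough gene STIMATE-MUSTN1, FAM229B, KLHDC8B, TRO, ARMH4, the hair keratin-associated gene KRTAP2-3, which has near-identical relatives, RAB3A of vesicle release, RGS19, which ends G protein signals, and CCDC106, at -1.07 to -0.92. Of these, only TRO kept its call with any knock-in sample left out, and all 9 were at 12 CPM or less in every knock-in sample. Several, such as ARMH4 and KLHDC8B, reached the mean of 5 CPM needed to be picked only in the wild type group. At the other end, ERBB4 was at 1.81 and 1.80 CPM against 8.34 and 11.1 CPM (2.42 ± 0.24, 0.00025) and MAP2 at 3.81 and 3.12 CPM against 13.6 and 17.2 CPM (2.16 ± 0.19, 0.00016). Both kept the call with any knock-in sample left out, and both means were at most 1.19 CPM in each of the 3 groups without a knock-in. PTPRC (CD45), a leukocyte marker, was called higher at 1.5 and 0.974 CPM against 3.07 and 6.19 CPM (1.92 ± 0.39, edgeR adjusted p = 0.014). The call was lost without mutant replicate 2 or wild type replicate 2. LYZ, the other leukocyte marker tested, was not called (0.18). The whole leukocyte list, PTPRC included, summed to 6.31 and 3.95 CPM against 7.84 and 10.9 CPM.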

How the data were processed

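RNA was extracted with a column kit and DNase I and made into libraries with a KAPA RNA HyperPrep kit, per the labels' protocols. Reads were aligned with Bowtie2 and quantified with RSEM 1.2.12 on hg19, per the submitters' processing notes. The authors deposited whole-number counts per gene, which may be rounded RSEM estimates. The sources used here give no strand setting, annotation or rule for reads with several matches. Genes with near-identical copies are uncertain for that reason. Names, types and lengths came from GENCODE (GRCh38), and promoters from RefSeq.

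The METTL3 row was removed. Genes with at least 10 counts in enough samples (filterByExpr) were scaled by TMM and tested in edgeR 4.0.16 (R 4.3.3) with the quasi-likelihood F test, 1 coefficient per group over all 10 samples, 5 residual degrees of freedom, two-sided, with Benjamini-Hochberg adjustment over 16915 genes. CPM values use TMM-scaled totals. The common biological coefficient of variation was 9.27%. The spread was shared by all groups, and the 2 control samples differed most. The chi-square per gene between the 2 samples of a group was 37.7 in control, 5.47 in senescent control, 5.67 in knockout, 6.68 in wild type and 3.90 in mutant samples. Without the control pair (the 8 senescent samples) 2344 genes were higher and 2522 lower, so genes not called here depend in part on that pair. With 2 samples against 2, an exact permutation test of a gene could not go below 0.333. The fit was tested on simulated data. Members and the 36 gene lists were chosen with earlier results of these data known.

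The genes named are 14 chosen by function, the 12 largest rises and falls among called genes with a mean of at least 5 CPM in either group, at least 3 counts in each sample of the lower group and no overlap, up to 3 per list in its main direction and 2 in the other, and the most abundant called genes. Names outside this rule were chosen after their values were seen: STAT2, IRF7, IRF9, IFIH1, RIGI, MKI67, DNAJB1, CRYAB, OAS3, BST2, IFIT3, COL1A1, CCNB1, HSPA8, HSF1, ICAM1, NFKBIA, MDM2, B2M, MYH11, AKR1C2, ISG20, IFI35, GBP1, SAMD9L, LGALS9, HSPH1, HSPD1, HSPE1, BAG3, NFKB1, TRAF1, PTGS2, SOD2, TNFAIP2, CYLD, TIMP1, CTSB, HGF, TRIB3 and SLC3A2. Some genes are not reported here. Alternatives were RLE and upper-quartile scaling, no filter, DESeq2 1.42.0, fewer samples in the fit, a replicate block, METTL3 kept in totals, each knock-in sample left out, and, added after the data were seen, offsets by gene span and by exonic length.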

Additional observations from a re-analysis of the deposited data

How the results depend on the processing

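No gene called here changed direction under any alternative run. Higher and lower counts were 891 and 1120 with RLE scaling, 1071 and 764 with upper-quartile scaling, 1308 and 1761 with no filter, 514 and 1002 with DESeq2, 1748 and 2365 in a fit of the 4 knock-in samples alone, 2344 and 2522 in the 8 senescent samples, and 864 and 1238 with METTL3 in the totals. The filter, the 4-sample and the 8-sample fits gave 15, 15 and 16 heat shock genes higher (0, 1 and 1 lower), 27, 25 and 34 G2 and M phase genes higher, and 20, 23 and 24 cholesterol and fatty acid genes lower. Leaving out 1 knock-in sample gave 89 to 474 genes higher and 30 to 548 lower, 23 to 37 interferon-stimulated, 5 to 6 heat shock, 1 to 5 NF-kB and 0 to 11 G2 and M phase genes higher, and 0 to 27 ribosomal, 1 to 17 respiratory chain, 1 to 9 proteasome, 0 to 7 glycolysis, 0 to 6 cholesterol and fatty acid, 1 to 9 NRF2 and 1 to 4 histone genes lower. Of 136 genes followed singly and called, 31 kept the call under every alternative and 82 lost it only when a sample was left out, where fewer samples remain by construction. Whether the replicate numbers pair the samples cannot be settled from 1 difference per group. The correlation of deviations was -0.07 between the 2 knock-in groups and ran from -0.27 to 0.23 over all pairs of groups. A fit with the replicate block gave 852 genes higher and 893 lower. With 2 samples a group, 4826 genes had an unadjusted p under 0.05.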
